A study of Mus musculus with 11 samples.

Results

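Epidermal growth factor (EGF) family ligands and their receptors were followed in fibroblasts sorted from mouse normal skin (NS) and 5-day excisional wounds (5dw). The 10 genes were taken from the expression table by symbol, 10 of 47643 symbols: the ligand genes Ereg, Areg, Hbegf, Tgfa, Btc, Epgn and Nrg1 and the receptor genes Egfr, Erbb2 and Erbb3. The genes were selected by symbol and not by a threshold on a measured value. The RPKM values of these 11 libraries had however been seen when the family was picked on them, so the tests given for its genes describe them and support nothing further. All 10 genes were found, and 9 passed the expression filter (RPKM, reads per gene length and sequencing depth, of at least 1 in at least 2 libraries), as 11979 genes did in all. Btc did not pass.

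Fibroblasts were live CD140a+ cells that lacked CD45, CD11b and the macrophage antigen encoded by Adgre1, and the labels name CD3 as a further negative marker. Mice were 9-12 weeks old, female and of a mixed background (50% CD-1, 50% C57Bl/6). K14-Act mice (Act) express the activin subunit transgene INHBA from the keratin 14 promoter, thus in keratinocytes, and Wt littermates (WT) were the controls. Each library held RNA pooled from 3 animals, and 3 libraries each came from WT NS, Act NS and WT 5dw. Act 5dw had 2, which carry the numbers 1 and 3 because the authors left out the library numbered 2 after quality control. Mapped reads, recovered from the RPKM values, were 18649321 to 39702138 per library, and the wound libraries of WT mice were the deepest. Pdgfra, which encodes CD140a, lay between 49.8 and 65.3 RPKM in NS and between 29.6 and 37.3 RPKM in wounds, and Ptprc, which encodes CD45, did not exceed 0.0498 RPKM. Inhba was 36.3, 59.1 and 91.1 RPKM in Act NS against 6.75, 6.93 and 3.40 RPKM in WT NS. The sort did not remove all keratinocyte RNA, and the summed RPKM of 14 keratinocyte markers is given beside the genes that it moves with. In such bulk libraries, fewer cells of a type and less RNA per cell cannot be told apart.

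EGF family ligands are made as membrane-anchored precursors, and proteases of the ADAM family release them from the cell surface. Most of them bind EGFR, while neuregulins bind ERBB3 and ERBB4. ERBB2 has no known ligand and serves as the partner of the other receptors, and ERBB3 has little kinase activity of its own and signals through such partners. In skin, EGFR and its ligands are best known for the growth and migration of keratinocytes, and wound fibroblasts are among the cells that secrete ligands towards the epidermis.

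Epgn, Ereg, Areg and Btc are neighbours on mouse chromosome 5. In GRCm38 they cover chr5:91027464-91035215, chr5:91074622-91093646 and chr5:91139599-91148432 on the plus strand and chr5:91357261-91402994 on the minus strand, and they are the 4 protein-coding genes of that stretch of 376 kb. Tgfa lies on chromosome 6, Nrg1 on chromosome 8, Erbb3 on chromosome 10, and Egfr and Erbb2 on chromosome 11. RefSeq promoter windows (GRCm38.p6, 250 bases before and 50 after the gene start) were at hand for 6 of the 10 genes, Areg, Tgfa, Btc, Epgn, Egfr and Erbb2. Bases before the start are shown for Epgn and Areg, cluster neighbours of Ereg that differed in their course after wounding, and for Tgfa, which lies elsewhere and had lower values in wounds as Epgn did. For Areg and Tgfa these are the 250 bases before the RefSeq start. The RefSeq start of Epgn lies 53 bases inside the gene as annotated above, so its window is shown up to that annotated start, as 197 bases. Capitals mark matches, on either strand, to 5 short motifs: an AP-1 site, a cAMP response element, a GC box, a TATA box and a SMAD palindrome, spelled out after the sequences.
Epgn, chr5:91027267-91027463, plus strand: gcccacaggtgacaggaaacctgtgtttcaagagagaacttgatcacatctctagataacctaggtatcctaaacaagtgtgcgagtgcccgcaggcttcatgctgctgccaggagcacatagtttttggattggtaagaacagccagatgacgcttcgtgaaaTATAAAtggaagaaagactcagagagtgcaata
Areg, chr5:91139349-91139598, plus strand: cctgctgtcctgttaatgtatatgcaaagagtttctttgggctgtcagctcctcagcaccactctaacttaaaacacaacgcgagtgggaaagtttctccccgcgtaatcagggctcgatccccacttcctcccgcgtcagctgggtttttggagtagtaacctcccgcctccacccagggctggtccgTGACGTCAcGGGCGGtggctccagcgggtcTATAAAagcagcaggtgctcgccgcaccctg
Tgfa, chr6:86194972-86195221, plus strand: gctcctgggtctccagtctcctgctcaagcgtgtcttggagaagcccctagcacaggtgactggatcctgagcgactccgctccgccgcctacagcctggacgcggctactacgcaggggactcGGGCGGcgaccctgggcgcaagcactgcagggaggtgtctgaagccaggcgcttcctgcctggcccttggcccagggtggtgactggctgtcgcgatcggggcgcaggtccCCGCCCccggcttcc
The cAMP response element was searched as TGACGTCA, and the Areg window held it 61 bases before the start. The GC box was searched as GGGCGG and stood in the Areg window at 52 bases before the start, with another after it. The TATA box was searched as TATAAA and stood 31 bases before the Areg start. The Epgn window held a TATA box 33 bases before its annotated start and 86 bases before its RefSeq start, while Tgfa held 2 GC boxes, at 126 and 15 bases before its RefSeq start. Egfr held a GC box 9 bases before its start, and no match was found in the windows of Btc and Erbb2. Among all 32851 promoter windows of the same length, 1.79% held the cAMP response element, 13.6% the TATA box, 35.7% the GC box, 5.2% the AP-1 site and 0.213% the SMAD palindrome. The AP-1 site was searched as TGACTCA and the SMAD palindrome as GTCTAGAC. Neither lay in the 6 windows, which says only that these letters are not there.

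Ereg, which encodes epiregulin, a broad ligand of EGFR and ERBB4, rose from a low level in NS to the highest of the family in wounds. Values are listed throughout in the order of the replicate numbers. The gene stood at 0.490, 1.70 and 1.92 RPKM in WT NS and at 152, 133 and 168 RPKM in WT 5dw. In Act mice it stood at 0.526, 2.74 and 4.60 RPKM in NS and at 69.7 and 131 RPKM in 5dw. Every wound library lay above every NS library by more than an order of magnitude. The reads behind these values numbered 51 to 436 in NS and 5908 to 26832 in wounds. On the log2(RPKM + 0.5) scale, which understates the change of low genes, the difference between wound and NS was 6.44 (SE 0.52, limma adjusted p = 6.83e-06) in WT mice and 5.22 (SE 0.58, adjusted p = 7.79e-05) in Act mice. It was the 2nd and the 6th highest log2 fold change of the 11979 genes tested, and it was called in each of the 21 alternative settings in both genotypes. The WT wound library with the smallest amount of keratinocyte marker RNA of all 11 libraries, number 1 at a summed 176 RPKM of 14 markers, held 152 RPKM of Ereg. Ereg was highest, at 168 RPKM, in WT 5dw 3, the wound library with the highest marker sum (1550 RPKM). The NS libraries came in the same order for Ereg as for that sum. A part of keratinocyte RNA in the Ereg values was not tested.

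Nrg1, the neuregulin that binds ERBB3 and ERBB4, was also higher in wounds, at a far lower level. It was 0.161, 0.195 and 0.122 RPKM in WT NS and 2.49, 1.55 and 2.80 RPKM in WT 5dw. The Act libraries held 0.0828, 0.192 and 0.311 RPKM in NS and 1.67 and 2.74 RPKM in 5dw. The tissues did not overlap, but no NS library reached the filter, so the gene could enter the test only through its wound values and had to differ, and no p is given for it. Its fitted difference was 2.05 (SE 0.22) in WT and 1.94 (SE 0.25) in Act mice with the pseudocount of 0.5, and it ranged from 1.48 to 3.84 and from 1.41 to 3.65 over the alternatives. The amount rests on 18 to 65 reads per library in NS and on 312 to 987 reads in wounds.

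Hbegf, which encodes heparin-binding EGF-like growth factor, had a smaller difference, called in WT mice and not in Act mice. It was 14.5, 16.7 and 15.7 RPKM in WT NS and 23.3, 23.8 and 32.7 RPKM in WT 5dw, 3 against 3 libraries without overlap. In Act NS it was 9.14, 18.4 and 21.3 RPKM and in Act 5dw 17.6 and 24.7 RPKM, and these groups overlapped. The difference was 0.73 (SE 0.27, limma adjusted p = 0.0381) in WT and 0.43 (SE 0.30, adjusted p = 0.269) in Act mice, and the difference between these was -0.30 (SE 0.41, adjusted p = 0.999). In Act mice leaving out 1 library gave values from 0.07 (without Act NS 1) to 0.67 (without Act 5dw 1), none of them called. The call in WT mice was lost without any 1 of the 6 WT libraries, with adjusted p between 0.0528 (without WT 5dw 1) and 0.133 (without WT 5dw 3), and without the filter (adjusted p = 0.0801). Under median-ratio scaling the difference was 1.11 (adjusted p = 0.004) in WT and 0.72 (adjusted p = 0.0556) in Act mice.

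**Figure D1:**
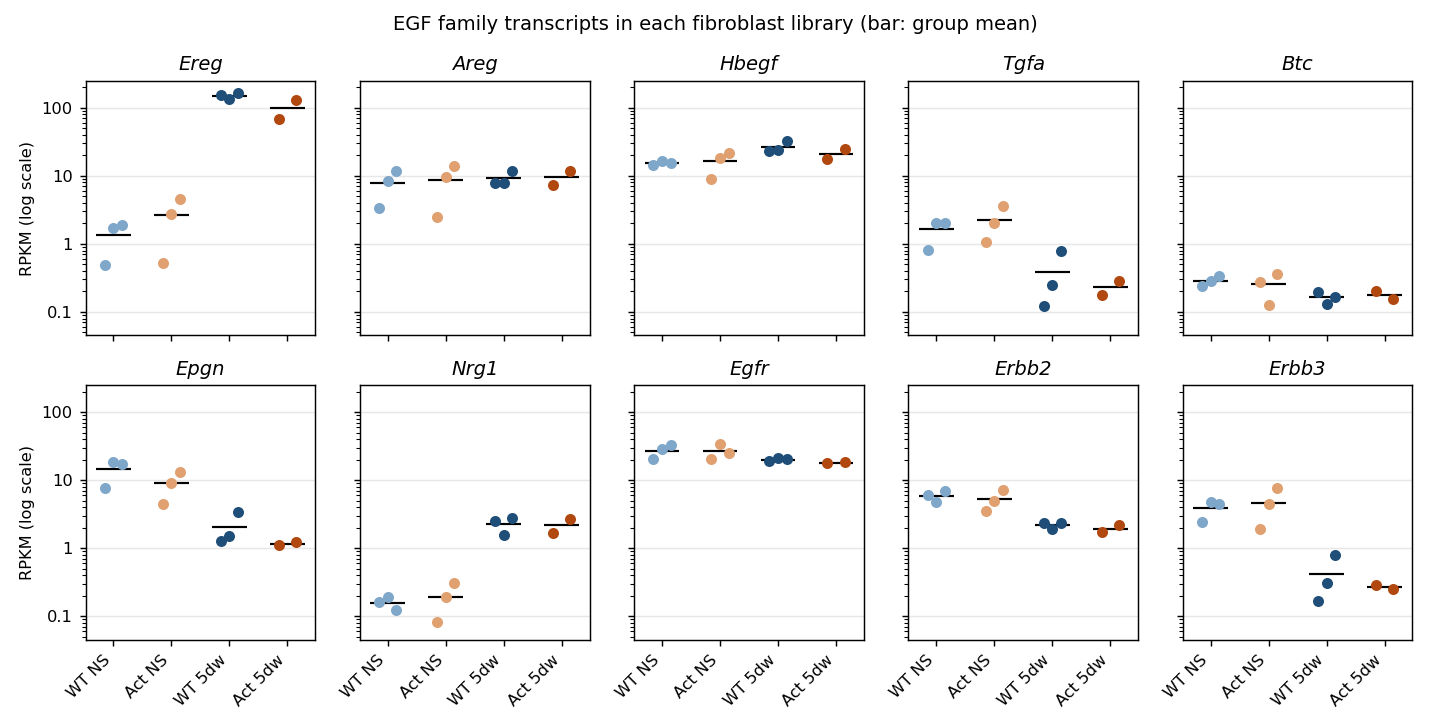
RPKM of the 10 EGF family genes in each library on 1 shared log axis, with 1 point per library, horizontal bars at the group means, with NS of WT and Act mice on the left and their wounds on the right. Ereg and Nrg1 are higher in the 5 wound libraries than in the 6 NS libraries, Tgfa, Epgn, Erbb2 and Erbb3 are lower, and Areg, Hbegf, Btc and Egfr overlap.

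Areg, which encodes amphiregulin, a ligand of EGFR, showed no difference beyond the spread. It was 3.43, 8.30 and 11.7 RPKM in WT NS and 7.82, 7.82 and 12.0 RPKM in WT 5dw. The Act libraries held 2.51, 9.50 and 13.9 RPKM in NS and 7.38 and 11.8 RPKM in 5dw. NS libraries 1 of both genotypes lay below all others, and the remaining libraries of both tissues shared 1 range. The fitted difference was 0.34 (95% interval -0.85 to 1.54, limma adjusted p = 0.6) in WT and 0.38 (-0.96 to 1.71, adjusted p = 0.636) in Act mice. These intervals still hold changes of more than 2-fold upwards, and the sign turned without NS library 1, to -0.12 in WT and -0.29 in Act mice. Its cluster neighbour Ereg thus differed by a log2 value of 6.44 in the WT comparison in which Areg, 46 kb away, was not called.

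Btc, which encodes betacellulin, was low in every library. The NS libraries held 0.237, 0.285 and 0.335 RPKM in WT mice and 0.277, 0.129 and 0.356 RPKM in Act mice. The wound libraries held 0.195, 0.131 and 0.165 RPKM in WT mice and 0.205 and 0.155 RPKM in Act mice. These are 14 to 45 reads per library. In the fit without a filter the difference was -0.24 (adjusted p = 0.139) in WT and -0.14 (adjusted p = 0.49) in Act mice, and at this depth no change was detectable.

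Epgn, which encodes epigen, a ligand of EGFR, fell in wounds of both genotypes. It was 7.83, 18.8 and 17.3 RPKM in WT NS and 1.27, 1.51 and 3.45 RPKM in WT 5dw. In Act mice it was 4.56, 9.19 and 13.3 RPKM in NS and 1.11 and 1.23 RPKM in 5dw. All wound libraries lay below all NS libraries, and WT 5dw 3 was the highest of the wound libraries. The 14 keratinocyte markers moved in the same direction, with a sum of 1286 to 4852 RPKM in NS and 176 to 1550 RPKM in wounds, highest there in WT 5dw 3 too. The difference was -2.56 (SE 0.42, limma adjusted p = 0.000557) in WT and -2.40 (SE 0.47, adjusted p = 0.0022) in Act mice, and it was called in each of the 21 alternatives in both genotypes. In NS, Epgn was the 2nd most abundant EGF ligand transcript of this list by group mean behind Hbegf, although libraries of Hbegf, Epgn and Areg overlapped.

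Tgfa, which encodes transforming growth factor alpha, a ligand of EGFR, was lower in wounds as well. It was 0.819, 2.04 and 2.06 RPKM in WT NS and 0.124, 0.247 and 0.795 RPKM in WT 5dw. In Act mice it was 1.08, 2.01 and 3.62 RPKM in NS and 0.180 and 0.283 RPKM in 5dw. The tissues did not overlap, but WT 5dw 3 lay just below WT NS 1, and since no wound library reached the filter the gene passed it through NS alone, had to be lower in wounds and is given without a p. The fitted difference was -1.28 (SE 0.38) in WT and -1.80 (SE 0.43) in Act mice, and over the alternatives it ranged from -2.37 to -0.92 and from -3.08 to -1.32. The keratinocyte marker sum, 1286 to 4852 RPKM in NS and 176 to 1550 RPKM in wounds, was lower with it.

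Among the receptors, Egfr was the most abundant in every library, and its lower mean in wounds was not called in the main fit. It was 20.4, 28.9 and 32.8 RPKM in WT NS and 19.0, 21.3 and 20.3 RPKM in WT 5dw. In Act mice it was 20.8, 34.5 and 25.3 RPKM in NS and 17.9 and 18.5 RPKM in 5dw. In WT mice the tissues overlapped, and in Act mice both wound libraries lay below the 3 NS libraries. The difference was -0.40 (SE 0.20, 95% interval -0.85 to 0.04, limma adjusted p = 0.107) in WT and -0.52 (SE 0.23, -1.02 to -0.02, adjusted p = 0.0804) in Act mice. The median gene of all 11979 fell by 0.40 and by 0.31 in these comparisons, and under median-ratio scaling, which removes most of that shift, Egfr was at -0.02 and -0.24. Without WT NS 1 the difference passed the test in both genotypes (-0.60, adjusted p = 0.0233, and -0.52, adjusted p = 0.046), and without Act NS 1 it did in Act mice (-0.69, adjusted p = 0.0248). It also passed in WT mice with the replicate number as a block (adjusted p = 0.0491) and in both genotypes with array weights (adjusted p = 0.0424 and 0.00559).

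Erbb2, the receptor without a known ligand, fell in both genotypes. It was 5.99, 4.78 and 6.89 RPKM in WT NS and 2.38, 1.89 and 2.39 RPKM in WT 5dw. In Act mice it was 3.59, 5.04 and 7.12 RPKM in NS and 1.71 and 2.19 RPKM in 5dw. No wound library reached the lowest NS library. The keratinocyte marker sum was lower in wounds as well, at 176 to 1550 RPKM against 1286 to 4852 RPKM in NS. The difference was -1.22 (SE 0.21, limma adjusted p = 0.000793) in WT and -1.19 (SE 0.24, adjusted p = 0.00249) in Act mice, and it was called in all 21 alternatives in both. Mien1, on the opposite strand at up to 22.7 RPKM, shares 9 of the 5210 exon bases of Erbb2.

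Erbb3, the receptor of neuregulins with a weak kinase, was lower by the largest step among the receptors tested. It was 2.44, 4.77 and 4.53 RPKM in WT NS and 0.167, 0.305 and 0.801 RPKM in WT 5dw. In Act mice it was 1.92, 4.50 and 7.67 RPKM in NS and 0.291 and 0.253 RPKM in 5dw. The tissues did not overlap, and as with Tgfa no wound library reached the filter, so the gene passed it through NS alone and had to be lower in wounds. The fitted difference was -2.27 (SE 0.40) in WT and -2.58 (SE 0.45) in Act mice, and over the alternatives it ranged from -3.44 to -1.77 and from -3.89 to -2.03. The same marker sum was lower in wounds too, at 176 to 1550 RPKM against 1286 to 4852 RPKM in NS. WT 5dw 3, at a sum of 1550 RPKM, lay above WT NS 1 (1286 RPKM) and Act NS 1 (1321 RPKM). Its Erbb3 was nevertheless lower, at 0.801 RPKM against 2.44 and 1.92 RPKM.

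**Figure D2:**
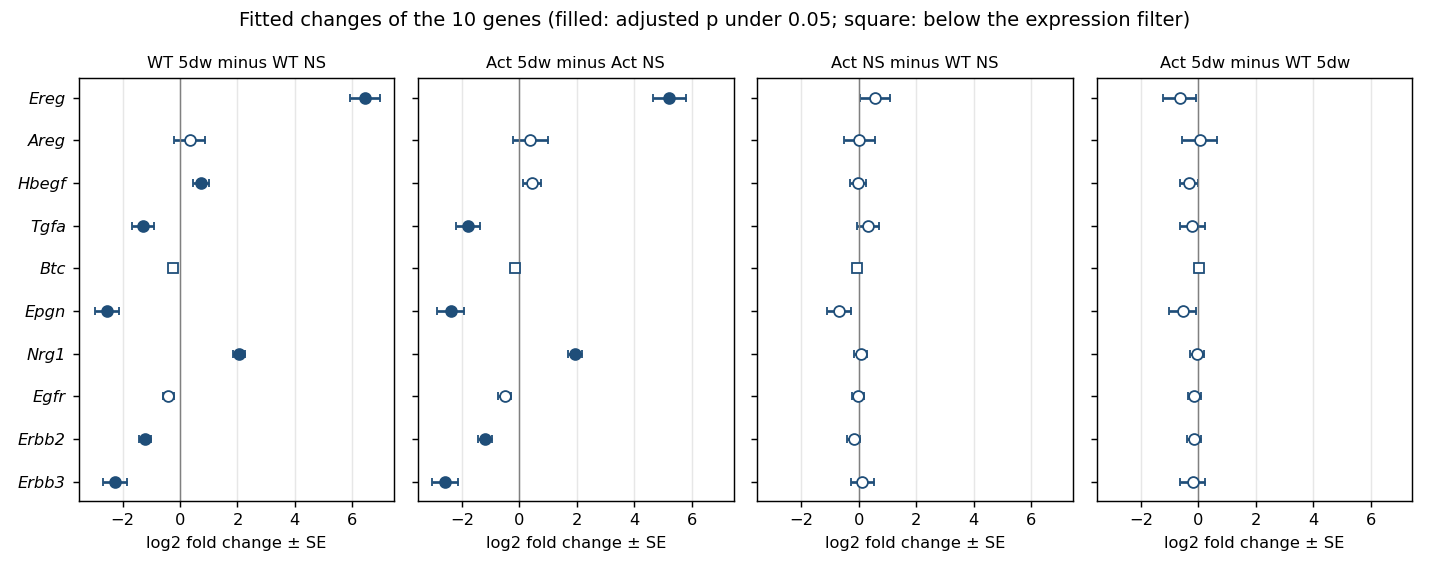
Fitted log2 fold change (x axis, log2(RPKM + 0.5) scale) with its standard error for the 10 genes in 4 comparisons, filled where the adjusted p is under 0.05, with a square for Btc, which is below the filter and comes from the fit without it. Ereg reaches 6.44 in WT and 5.22 in Act wounds, Epgn is lowest in WT wounds at -2.56 and Erbb3 in Act wounds at -2.58, and both genotype panels hold open symbols only. Nrg1, Tgfa and Erbb3 passed the filter through 1 tissue and had to differ, so their fill in the wounding panels is no evidence of a difference.

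Of the 9 genes tested, 7 were called in WT mice, 3 higher in wounds and 4 lower. In this comparison 58.3% of all 11979 genes were called, 9.45% higher and 48.8% lower. In Act mice 6 were called, 2 higher and 4 lower, against 45.6% of all genes, 9.04% higher and 36.5% lower. On this scale lower values in wounds were more common among all genes than higher ones. Nrg1, Tgfa and Erbb3 passed the filter through 1 tissue, so these counts describe the genes and do not set the family apart. Under median-ratio scaling the family had 7 and 6 calls, against 44.6% and 41.0% of all genes. Of all genes 19.4% were then higher and 25.3% lower in WT and 17.4% and 23.5% in Act mice, and the share of higher genes among all calls moved from 16.2% to 43.4% in WT and from 19.8% to 42.6% in Act mice. Over both genotypes, Ereg and Nrg1 were higher in all 5 wound libraries than in all 6 NS libraries, as 8.45% of tested genes were, and Tgfa, Epgn, Erbb2 and Erbb3 were lower, as 38.9% were.

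The order of the levels within the family changed with the tissue. By group mean, WT NS ran from Egfr (27.4 RPKM) over Hbegf (15.6), Epgn (14.7), Areg (7.81), Erbb2 (5.88), Erbb3 (3.91), Tgfa (1.64), Ereg (1.37) and Btc (0.286) to Nrg1 (0.159). Libraries of neighbours overlapped for Hbegf and Epgn, Epgn and Areg, Areg and Erbb2, and Tgfa and Ereg. The wounds of WT mice had the order Ereg (151 RPKM), Hbegf (26.6), Egfr (20.2), Areg (9.20), Nrg1 (2.28), Erbb2 (2.22), Epgn (2.08), Erbb3 (0.425), Tgfa (0.388) and Btc (0.164). There the neighbours from Nrg1 to Epgn overlapped, as did those from Erbb3 to Btc. Act 5dw had the same order as WT 5dw by mean, and Hbegf and Egfr overlapped there. Act NS had the order of WT NS except that Ereg (2.62 RPKM) stood above Tgfa (2.23 RPKM), with overlap.

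The 7 ligand genes added up to 41.6 ± 12.2 RPKM (SD, n = 3) in NS of WT mice and 39.3 ± 19.8 RPKM (n = 3) in that of Act mice, and to 192 ± 26 RPKM (n = 3) and 135 ± 52.1 RPKM (n = 2) in their wounds. Without Ereg the sums were 40.2, 36.6, 40.7 and 34.5 RPKM, so the increase of the sum lay in Ereg. Its share of the ligand transcripts was 1.78 to 3.90% in WT NS and 2.90 to 8% in Act NS, against 76.4 to 81.2% in wounds of WT mice and 71.2 and 76.2% in those of Act mice. Epgn went the other way, from 21.8 to 39.1% over the NS libraries to 0.678 to 1.57% over the wound libraries. The 3 receptor genes added up to 37.2 and 36.8 RPKM in NS of WT and Act mice and to 22.9 and 20.4 RPKM in wounds, and Egfr made up 63.1 to 79.1% of that sum in NS and 86.4 to 90.7% in wounds. The ratio of the ligand to the receptor sum was 1.10 ± 0.15 and 1.03 ± 0.38 in NS of WT and Act mice and 8.39 ± 1.12 and 6.56 ± 2.32 in their wounds.

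**Figure D3:**
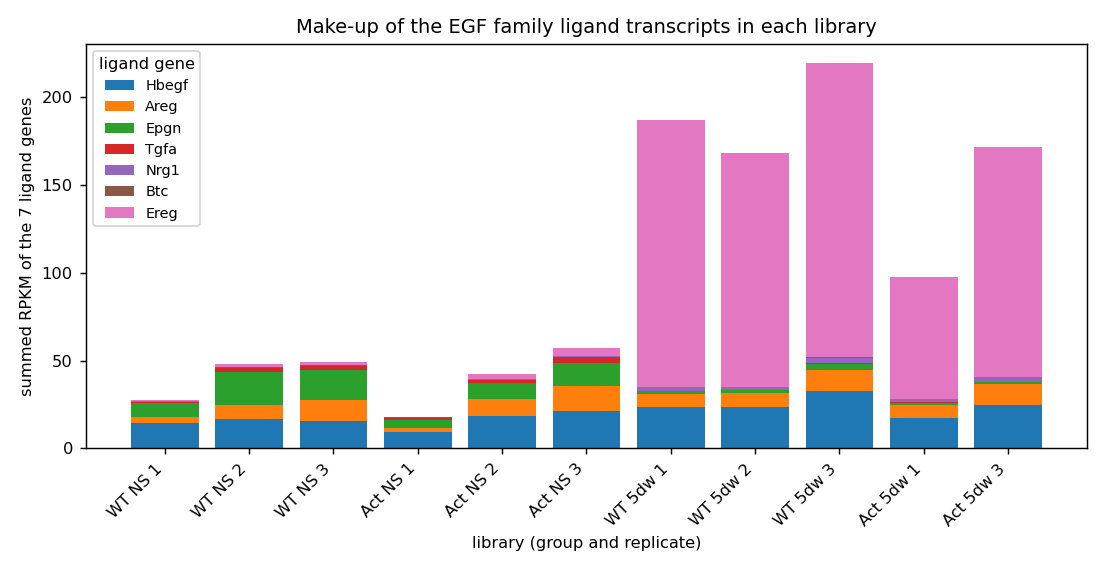
Summed RPKM of the 7 EGF family ligand genes in each of the 11 libraries (bars from 0), split by gene. The NS bars reach 18.2 to 57.5 RPKM and consist mostly of Hbegf, Areg and Epgn, and the wound bars reach 97.8 to 219 RPKM and consist mostly of Ereg.

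The transgene was not accompanied by a called difference in any of the 9 genes. In NS, Act minus WT differences ran from -0.69 for Epgn (SE 0.42, 95% interval -1.62 to 0.23, limma adjusted p = 0.702) to 0.56 for Ereg (SE 0.52, -0.59 to 1.71, adjusted p = 0.759). In 5dw they ran from -0.65 for Ereg (SE 0.58, -1.94 to 0.63, adjusted p = 1) to 0.05 for Areg (SE 0.60, -1.29 to 1.38, adjusted p = 1). Act 5dw 1 held the lowest Ereg value of the wound libraries, 69.7 RPKM, and Act 5dw 3 at 131 RPKM lay close to the lowest WT value of 133 RPKM. The difference between the wounding responses of Act and WT mice was lowest for Ereg at -1.21 (SE 0.78, -2.94 to 0.51, adjusted p = 0.999) and highest for Epgn at 0.16 (SE 0.63, -1.23 to 1.55, adjusted p = 0.999). Of all 11979 genes, 0.0167% were called between genotypes in NS, 0.0334% in 5dw and 0% in the difference of responses. None of the 9 genes had an unadjusted p under 0.05 in these 3 comparisons, and limma-voom on the recovered reads called 0 of them too, against 824, 386 and 400 of all genes with an unadjusted p under it. The intervals still held differences of 2-fold or more for Ereg, Areg, Epgn, Tgfa and Erbb3 in both tissues. With 1 library left out, the NS difference ranged from 0.07 to 1.23 for Ereg and from -1.08 to -0.30 for Epgn. The 5dw difference of Ereg then ranged from -1.10 to -0.20 and its response difference from -1.88 to -0.72.

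Of the 5 family genes outside the list, Nrg2, a further neuregulin, was the 1 that passed the filter, through 2 NS libraries, so that it too had to be lower in wounds. It averaged 0.798 ± 0.230 RPKM (WT) and 0.880 ± 0.448 RPKM (Act) in NS, against 0.019 ± 0.013 and 0.130 ± 0.049 RPKM in wounds. The fitted difference was -1.31 (SE 0.23) in WT and -1.08 (SE 0.26) in Act mice, and it ranged from -5.16 to -0.81 and from -2.60 to -0.71 over the alternatives. Egf itself did not exceed 0.126 RPKM, Nrg3 0.0143 RPKM and Nrg4 0.282 RPKM. Erbb4, the other neuregulin receptor, did not exceed 0.0109 RPKM in NS, at 1 to 4 reads per library, and had 0 reads in the 5 wound libraries. Erbb3 was thus the neuregulin receptor detected above 0.1 RPKM in these libraries, and it was low where Nrg1 was high.

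Transcripts of keratinocytes, which depend on EGFR ligands and express several of them, moved with part of the family. The 14 keratinocyte markers added up to 1286, 2132 and 2356 RPKM in WT NS and to 1321, 3129 and 4852 RPKM in Act NS. The wound libraries held 176, 358 and 1550 RPKM in WT and 395 and 474 RPKM in Act mice. In WT wounds 11 of the 14 markers were called lower and 1 higher, with a median log2 fold change of -2.84, and in Act wounds 11 were lower and 0 higher, with a median of -3.23, against 48.8% and 36.5% of all genes called lower. Under median-ratio scaling 9 were called lower in both genotypes, against 25.3% and 23.5% of all genes. Krt15, Trp63 and Epcam passed the filter through NS alone. Krt10, a keratin of differentiated epidermis, was the most abundant at a mean of 807 RPKM in NS and 14.8 RPKM in wounds. Krt14 averaged 238 RPKM in NS and 234 RPKM in wounds of WT mice, where the highest wound library held 528 RPKM. In Act mice Krt14 averaged 344 and 143 RPKM.

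Within each tissue the extremes of the marker sum were also extremes of several family genes. In NS, libraries 1 of both genotypes had the lowest marker sums and the lowest values of Ereg, Areg, Hbegf, Tgfa, Epgn, Egfr and Erbb3, and Act NS 3 had the highest marker sum and the highest Ereg, Areg, Hbegf, Tgfa, Btc, Nrg1, Erbb2 and Erbb3. The 6 NS libraries came in the same order for Ereg as for the marker sum. Libraries 1 of WT NS and Act NS also deviated together (r = 0.55), and Act NS 1 had the lowest total RPKM over all genes, 225686. How many of all genes were lowest in these libraries was not counted. In wounds, WT 5dw 3 had the highest marker sum and the highest Ereg, Areg, Hbegf, Tgfa, Epgn, Nrg1, Erbb2 and Erbb3. Erbb2 was however nearly the same in WT 5dw 1, at 2.38 against 2.39 RPKM. WT 5dw 1, with the lowest marker sum, was lowest for Tgfa and Erbb3. Act 5dw 1 was lowest for Ereg, Areg, Hbegf, Epgn, Egfr and Erbb2, and WT 5dw 2 for Btc and Nrg1. The part of keratinocyte RNA in the lower values of Tgfa, Epgn, Erbb2 and Erbb3 was not tested.

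The genes differed in their level relative to the marker sum. Per 1000 RPKM of the 14 markers, Tgfa was 0.637 to 0.957 RPKM in NS and 0.456 to 0.705 RPKM in wounds, and Epgn was 2.75 to 8.81 and 2.23 to 7.20 RPKM, so both overlapped between the tissues. Erbb2 overlapped as well, at 1.47 to 4.66 and 1.54 to 13.5 RPKM. Erbb3 was 1.44 to 2.24 RPKM in NS and 0.517 to 0.950 RPKM in wounds on that scale, without overlap. Per 1000 RPKM of Krt5 and Krt14, keratins of basal keratinocytes, Tgfa was 2.06 to 4.06 RPKM in NS and 0.964 to 1.51 RPKM in wounds, without overlap, and Epgn still overlapped, at 12.9 to 37.1 and 4.42 to 15.4 RPKM, as did Erbb2 at 7.88 to 15.1 and 3.06 to 28.9 RPKM. Erbb3 did not, at 5.42 to 9.41 and 1.03 to 2.03 RPKM. Ereg was 0.381 to 0.948 RPKM in NS and 108 to 862 RPKM in wounds per 1000 RPKM of the 14 markers. Nrg1 was 0.0519 to 0.126 and 1.81 to 14.1 RPKM on that scale, and neither gene overlapped between the tissues.

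**Figure D4:**
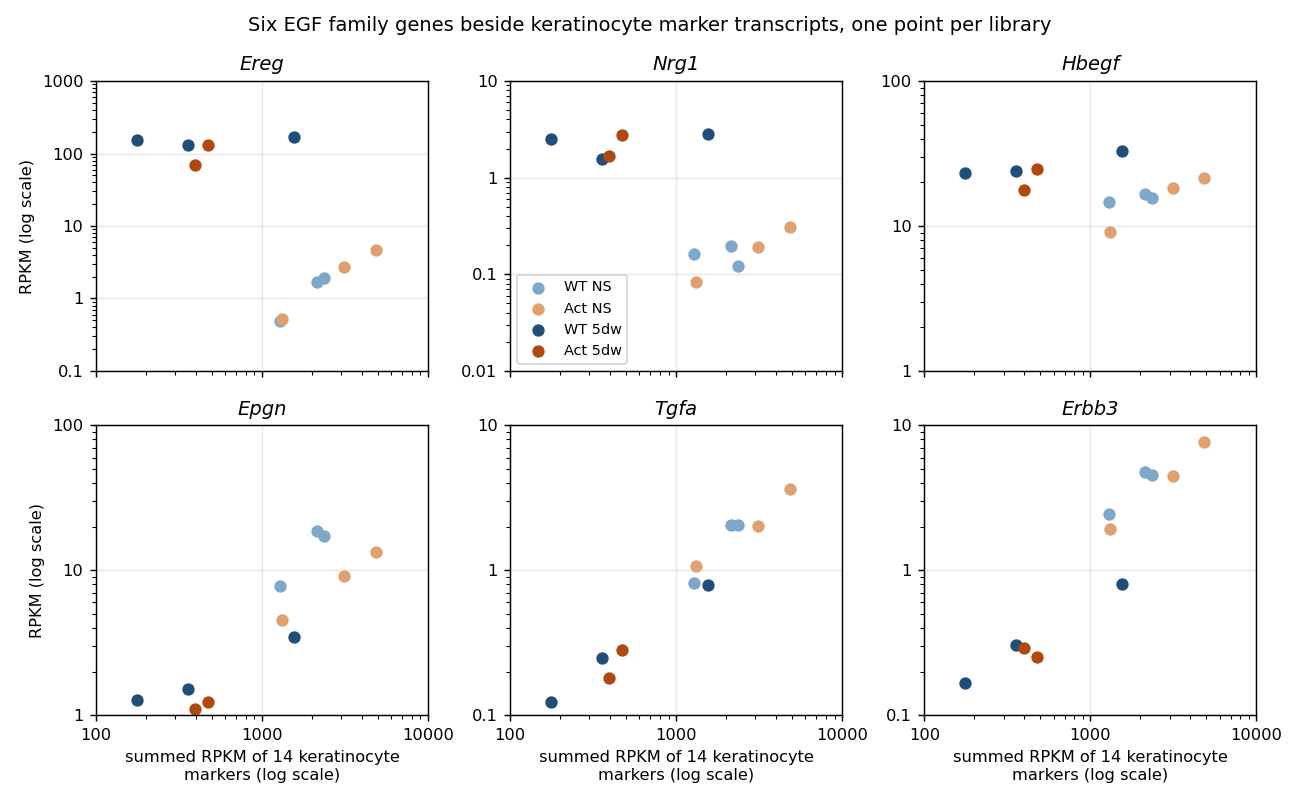
RPKM of 6 EGF family genes (y axis, log scale) against the summed RPKM of 14 keratinocyte markers (x axis, log scale), with 1 point per library coloured by group. Tgfa, Epgn and Erbb3 are low in the 4 wound libraries with sums of 176 to 474 RPKM and higher in WT 5dw 3 at 1550 RPKM, and Ereg, Nrg1 and Hbegf in WT 5dw 1 at 176 RPKM lie above their values in every NS library.

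Marker lists of other cell types gave smaller sums. Schwann cell markers, whose cells use ERBB3 and neuregulins, summed to 5.45 to 10.7 RPKM in NS and to 0.811 to 1.06 RPKM in wounds, and Sox10 averaged under 0.1 RPKM in each group. The 3 tested markers of 6 passed the filter through NS alone, so they had to be lower in wounds. Melanocyte markers summed to 11 to 18.7 RPKM in NS and 4.82 to 8.51 RPKM in wounds, mostly Mitf. Both moved with Erbb3, and their part in its lower level was not tested. Neutrophil markers summed to 0.286 to 1.10 RPKM in NS and 2.98 to 21.7 RPKM in wounds, there mostly S100a9. In NS the mean of S100a8 was higher than that of S100a9, at 0.601 against 0.129 RPKM in WT and 0.226 against 0.214 RPKM in Act mice. T cell markers summed to 4.02 to 35.5 and 58.2 to 106 RPKM, mostly Cd3e. Cd3e averaged 12.5 RPKM in NS and 74.1 RPKM in wounds. Cd3d, Cd3g, Lck and Cd8a reached 1 RPKM in no library, and Cd3d, Cd3g and Cd8a were at 0 in some libraries. The sum thus followed Cd3e and not the list as a whole. Endothelial markers were at 5.91 to 10.8 RPKM in NS and 16.1 to 18.3 RPKM in wounds. The most abundant was Pecam1, at a mean of 4.54 RPKM in NS and 12.7 RPKM in wounds. Tie1, Emcn and Vwf reached 1 RPKM in no library, and of 3 tested markers 1 was called higher in WT and 2 in Act wounds. The neutrophil, T cell and endothelial sums were higher in wounds without overlap, as Ereg and Nrg1 were, and their part was not tested. The gate on CD45 is meant to remove neutrophils and T cells, and that on CD11b neutrophils. Macrophage markers summed to 9.73 to 16.6 RPKM in NS and 10.8 to 15.1 RPKM in wounds, mast cell and basophil markers to at most 2.32 RPKM, and pan-immune markers did not exceed 1.23 RPKM. Cd68 was the most abundant macrophage marker, at a mean of 8.32 RPKM in NS and 5.55 RPKM in wounds. Adgre1, Mrc1, C1qa and C1qb reached 1 RPKM in no library. Pericyte markers were 14.9 to 23.5 and 11.7 to 19.8 RPKM, and fibroblast markers were 10617 to 16387 and 22095 to 25447 RPKM. The most abundant fibroblast marker was Col1a1, at a mean of 3309 RPKM in NS and 9103 RPKM in wounds. Of 8 fibroblast markers, 3 were called higher and 4 lower in WT wounds and 3 and 3 in Act wounds, with medians of -0.32 and -0.44. Of all genes 9.45% were higher and 48.8% lower in WT and 9.04% and 36.5% in Act wounds.

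The genes that release EGF ligands moved in both directions. Of 9 sheddases and partners, 3 were called higher and 4 lower in WT wounds, and 3 higher and 3 lower in Act wounds, with median log2 fold changes of -0.17 and -0.38. Of all genes tested, 9.45% were called higher and 48.8% lower in WT wounds and 9.04% and 36.5% in Act wounds, with medians of -0.40 and -0.31. Under median-ratio scaling the list gave 3 higher and 2 lower in WT and 4 and 3 in Act mice, against 19.4% and 25.3% of all genes in WT and 17.4% and 23.5% in Act mice. Its median turned to 0.16 in WT mice and was -0.10 in Act mice. Adam12, a metalloprotease that sheds Hbegf among other substrates, was higher by 3.08 (SE 0.26) in WT and 2.80 (SE 0.29) in Act mice, from 4.62 ± 1.80 to 41.3 ± 3.76 RPKM in WT mice. Adam19 was higher by 1.44 and 1.56 and Adam9 by 0.47 and 0.53. Timp3, an inhibitor of ADAM proteases, was lower, at -2.71 (SE 0.32) and -1.72 (SE 0.36), from 168 ± 65.3 to 24.6 ± 6.77 RPKM in WT mice. Rhbdf1 and Rhbdf2, the inactive rhomboids that bring ADAM17 to the surface, were at -0.91 and -0.90 in WT and -0.95 and -1.19 in Act mice, and Rhbdf2 was not called in WT mice under median-ratio scaling (adjusted p = 0.0542).

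Receptor adaptors and kinases had lower values, as many genes did. Of 20, 15 were called lower in WT and 13 in Act wounds and 0 higher, against 48.8% and 36.5% of all genes lower, with medians of -0.52 and -0.49. Under median-ratio scaling the list gave fewer calls, 3 higher and 3 lower in WT mice and 0 and 4 in Act mice, with medians of -0.16 and -0.23. Of all genes 19.4% were then higher and 25.3% lower in WT and 17.4% and 23.5% in Act mice. Pik3r1, a regulatory subunit of PI3 kinase, was lower, at -1.96 (SE 0.18) and -1.86 (SE 0.20), and Sos2, a Ras exchange factor, at -1.34 (SE 0.12) and -1.24 (SE 0.13). Both were also lower under that scaling. Gab1, a docking protein, was at -0.63 and -0.96 and lost its call in WT mice under it (adjusted p = 0.0645).

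Inhibitors of the receptors and of ERK included 1 of 16 called higher and 9 lower in WT wounds, and 1 and 5 in Act wounds, with medians of -0.42 and -0.31, close to those of all genes. The share of all genes called lower was 48.8% in WT and 36.5% in Act wounds. Under median-ratio scaling the list gave 1 higher and 5 lower in WT and 2 and 4 in Act mice, with medians of -0.07 and -0.04, against 25.3% and 23.5% of all genes lower and 19.4% and 17.4% higher. Spry1 and Spry4, antagonists of receptor tyrosine kinase signalling, were lower, at -1.76 and -1.87 in WT and -2.00 and -1.69 in Act mice. Spry1 went from 17.7 ± 3.87 to 4.86 ± 1.19 RPKM in WT mice. Dusp6, an ERK phosphatase, was lower, at -1.57 (SE 0.30) and -1.94 (SE 0.34), and Dusp4, a phosphatase of the same family, was higher by 1.96 (SE 0.25) and 2.03 (SE 0.28). These 4 genes were also called under that scaling, but Spry4, like Lrig2 of the same list, passed the filter through NS alone and had to be lower in wounds.

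Genes known to respond to ERK did not move together. Of 9 tested, 4 were called higher and 2 lower in both genotypes, with medians of 0.12 and 0.34, against 9.45% of all genes higher and 48.8% lower in WT and 9.04% and 36.5% in Act mice. Under median-ratio scaling 5 were called higher and 1 lower in WT and 4 and 2 in Act mice, with medians of 0.51 and 0.63, against 19.4% and 25.3% of all genes in WT and 17.4% and 23.5% in Act mice. Ier3, an early response gene, was higher by 1.85 and 1.94, Egr2, a transcription factor, by 0.81 and 1.06, and Phlda1 by 1.03 and 0.69. Etv5, a transcription factor downstream of receptor tyrosine kinases, was lower, at -0.98 and -1.01, and Fosl1, an AP-1 subunit, at -0.99 and -1.47, although Fosl1 was not called in WT mice under median-ratio scaling (adjusted p = 0.062). Several of these genes also answer to tissue dissociation. The 15 dissociation genes summed to 7242 to 11237 RPKM in NS and 6630 to 8359 RPKM in wounds, with 1 called higher and 5 lower in WT wounds and 1 and 2 in Act wounds. Their medians of -0.25 and -0.10 turned to 0.14 and 0.19 under median-ratio scaling, with 2 called higher and 0 lower in WT and 1 and 0 in Act mice. The gene called higher without the scaling was Ier3, and Btg2 was added by it in WT mice. Hspa1a and Hspa1b were called lower in both genotypes, but under that scaling in neither (adjusted p = 0.0734 and 0.0855 for Hspa1a and 0.0875 and 0.089 for Hspa1b in WT and Act mice). The part of dissociation in the values of the ERK-responsive genes was not tested. In all 4 pathway lists 0 genes were called between genotypes in NS, in 5dw or in the difference of responses.

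**Figure D5:**
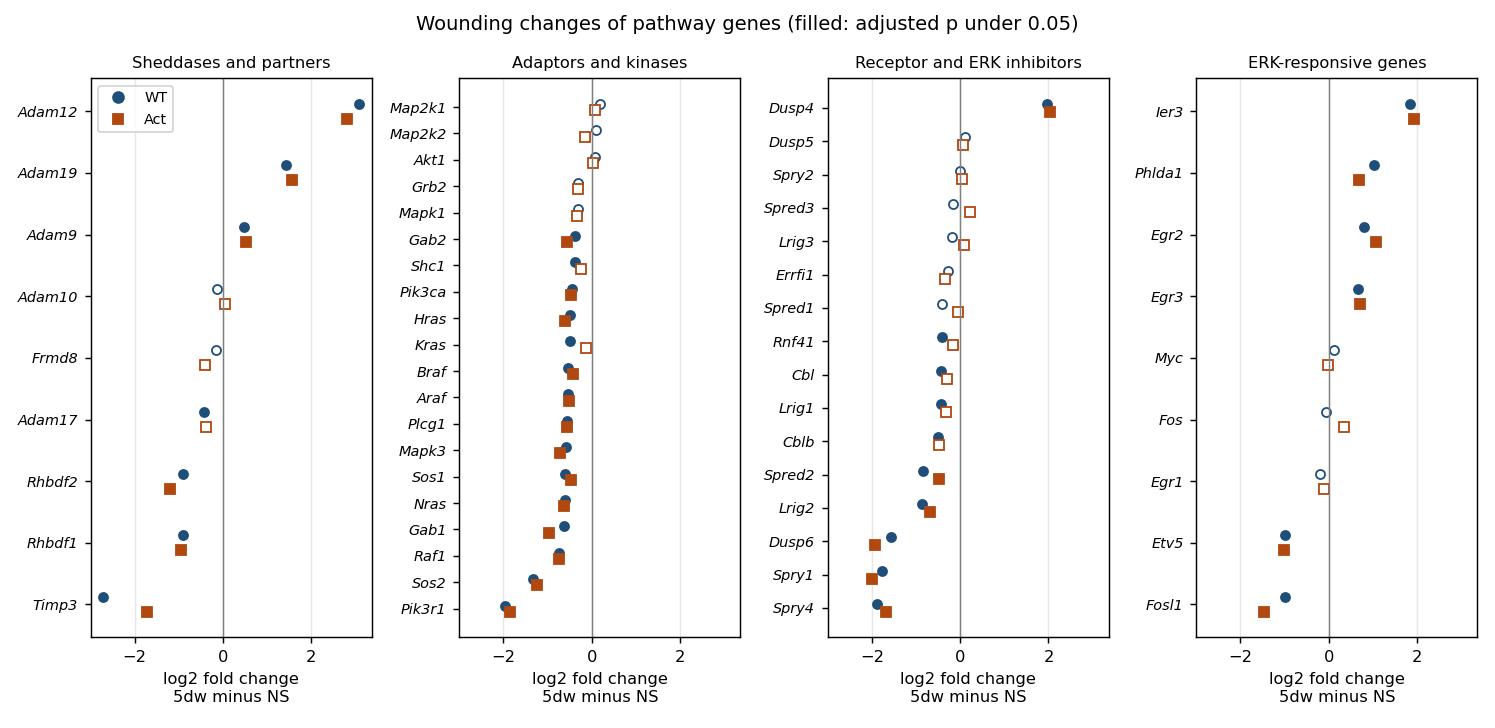
Log2 fold change between wounds and NS (x axis) of each tested gene of 4 lists fixed by name, in WT mice (circles) and Act mice (squares), filled where the adjusted p is under 0.05. Adam12 reaches 3.08 in WT mice and Timp3 -2.71, and of the adaptors and kinases 15 in WT and 13 in Act mice are called, all with negative values. Spry4 and Lrig2 passed the filter through NS alone and had to be lower, so any fill of theirs is no evidence of a difference.

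Across the 11 libraries, the genes closest to Ereg by root mean square difference of centred log2 values were Cxcl5 (0.57), Hp (0.61) and Nos2 (0.77), against a spread of Ereg itself of 3.02. Cxcl5, a neutrophil chemokine, averaged 5.40 RPKM in WT NS and 220 RPKM in WT 5dw, Hp, the acute-phase protein haptoglobin, 0.518 and 83.4 RPKM, and Nos2, the inducible nitric oxide synthase, 0.0960 and 23.7 RPKM. Their differences in WT mice were 5.28, 6.37 and 5.33, and in Act mice 4.76, 5.38 and 5.50. The genes closest to Epgn were Slco2a1 (0.28), a prostaglandin transporter, Adtrp (0.29) and Mpzl2 (0.33), a cell adhesion protein of epithelia, against a spread of Epgn of 1.34. Slco2a1 averaged 14.2 RPKM in WT NS and 2.38 RPKM in WT 5dw, Adtrp 3.08 and 0.168 RPKM, and Mpzl2 5.15 and 0.946 RPKM. Hp and Nos2 passed the filter through wounds alone, and Adtrp and Mpzl2 through NS alone. The libraries fall into 2 tissues, and the step between them enters this measure.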

How the data were processed

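Poly-A RNA of sorted fibroblasts was sequenced as single 100 bp reads. The authors pooled the RNA of 3 animals per library across sorting sessions, used CLC Genomics Workbench with GRCm38 for alignment and counting, and deposited RPKM values per gene symbol. A strand setting of the counting was not stated. The labels do not tie libraries to separate sessions, so p-values measure the spread between these pools.

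The 11979 genes that reached 1 RPKM in 2 or more libraries were fitted as log2(RPKM + 0.5) with limma-trend (limma 3.58.1, R 4.3.3), with 1 mean for each of the 4 groups over all 11 libraries and 7 residual degrees of freedom. Tests were two-sided, adjusted by the Benjamini-Hochberg method over all genes of a comparison, and called at an adjusted p under 0.05. The authors' edgeR test takes counts and was not run. Mapped totals and whole reads were recovered from the RPKM values (tolerance 0.03). With annotated GENCODE M21 lengths 61.6% of tested genes gave whole reads in every library, and with the smallest fitting length 100% did, so reads of Hbegf and Nrg1 rest on a fitted length. The reads were used for limma-voom as an alternative. Scripts were tested on simulated data.

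The members and lists were chosen with earlier results of these data known. All family genes are named. From each pathway list, up to 3 genes called higher and 3 called lower in both wounding comparisons with the largest mean change are named, and the 3 genes closest to the members with the highest and the lowest change in WT wounds. Same-numbered libraries deviated together between WT NS and WT 5dw (r = 0.19, 0.12 and 0.11) and between WT NS and Act NS (0.55, 0.42 and 0.33), but not throughout with Act 5dw (-0.12 to 0.19). No label says what a number marks.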

Additional observations from a re-analysis of the deposited data

How the results depend on the processing

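The settings varied were the pseudocount, the filter, the scaling, array weights, the replicate block, a fit of the compared groups alone, limma-voom and leaving out libraries. With a filter of 5 RPKM, 6 of the genes remained in the test and 4 were called in WT and 3 in Act wounds, against 57.2% and 47.1% of all genes. Areg reversed without both NS libraries 1, to -0.12 in WT and -0.29 in Act wounds, and leaving out 1 library gave -0.12 to 0.70 and -0.29 to 0.84. Between genotypes in wounds Areg was -0.0075 with array weights and -0.27 to 0.36 with 1 library left out, and the response difference of Epgn was -0.051 and -0.24 to 0.54, none of them called. Leaving out 1 library gave 5 to 7 called genes in WT and 6 to 7 in Act wounds, against 48.3 to 61.4% and 29.3 to 49.0% of all genes. With the replicate number as a block, 8 genes were called in WT wounds, Egfr being added (adjusted p = 0.0491), and 6 in Act wounds, against 61.1% and 47.7% of all genes, and the block changed no other call of a family gene. The causes were not tested. Precision is limited by 2 or 3 libraries per group, and for Btc, Nrg1 and Erbb4 in NS by read numbers.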
